A study of Mus musculus with 4 samples.

Results

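Rax and the eGFP reporter were described across day 6 mouse retinal organoids grown with or without doxycycline (Dox). These 2 rows, out of 55426 rows in the deposited expression table, were found by their names. They had been selected on their large difference between the treated and untreated libraries of this same comparison, so that difference is described below and not tested. Rax, also called Rx, encodes a paired-class homeodomain transcription factor. It is among the earliest genes switched on in the eye field of the anterior neural plate, it stays on in dividing retinal progenitors, and mice without it form no eyes. It also marks the ventral forebrain that becomes the hypothalamus. Enhanced green fluorescent protein (eGFP) is not a mouse gene. Reporter lines in which a fluorescent protein follows Rx expression are used to see retinal progenitors arise in culture.

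Retinal organoids are stem cell aggregates led towards retina in culture. According to the labels, every library came from the Rx:GFP Mettl3 KO line, which has lost the RNA methyltransferase gene Mettl3 and carries a Dox-inducible copy of HA-METTL3, the enzyme that writes N6-methyladenosine (m6A) on RNA. All cultures were differentiated in medium with AGN at 0.1 µM, and 2 libraries received no Dox while 2 received Dox at 2 µg/ml for 6 days. The titles call the groups EV and EV+Dox without saying what EV stands for, and the labels describe neither the promoter of the inducible copy nor how GFP was joined to Rx, nor whether the line is 1 clone. The replicates are called duplicates and share 1 batch label. Nothing says whether they were separate cultures, so p-values measure only the spread between these libraries, which may be technical. Fitted depth was 31700000 to 34900000 fragments per library, and 23334 to 23871 rows had a value above 0. Mettl3 itself was listed at 40.33 and 37.98 FPKM without Dox and at 45.2 and 46.37 FPKM with it, a log2 difference of 0.22 that did not pass the threshold (limma, adjusted p = 0.122), and gene-level values do not separate the inducible copy from the disrupted locus.

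Rax was close to silent without Dox and was one of the more abundant messages with it. FPKM is the number of fragments scaled to transcript length and library depth, so levels can be set beside each other across genes. Rax stood at 1.12 FPKM in untreated replicate 1 and at 0.82 FPKM in untreated replicate 2. With Dox it stood at 201.14 FPKM in replicate 1 and at 227.98 FPKM in replicate 2. Both Dox libraries were far above both untreated libraries, and the groups did not overlap. The group means were 0.97 ± 0.212 FPKM and 214.6 ± 19.0 FPKM (SD, n = 2 each), a ratio of 221. Bulk RNA cannot tell fewer cells expressing a gene from less of its RNA per cell. Over the 4 possible pairs of a Dox and an untreated library the ratio ran from 179.6 to 278. In this comparison 9.31% of all tested genes passed the threshold (limma, adjusted p below 0.05), 4.44% higher and 4.87% lower with Dox, and nothing is read from these shares for Rax and eGFP, which were chosen on the same contrast.

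In the order of all rows with a value, Rax moved from the lower part to near the top. It lay above 41.9% and 39.8% of the rows with a value in the untreated libraries, and above 97.5% and 97.9% of them in the Dox libraries. Its rank by level went from 13574 and 14347 to 586 and 486. On the principal transcript of 1672 nt, the untreated values correspond to about 52 and 41 fragments and the Dox values to about 9131 and 10675. Rax therefore had a low but countable signal without Dox, with 95% Poisson intervals of 0.836 to 1.47 FPKM and 0.588 to 1.11 FPKM that cover counting error only.

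In FPKM, the reporter row started lower and ended higher than the gene. eGFP was listed at 0.26 and 0.42 FPKM in untreated replicates 1 and 2, and at 333.52 and 361.13 FPKM in Dox replicates 1 and 2. The means were 0.34 ± 0.113 FPKM and 347 ± 19.5 FPKM (SD, n = 2 each), and again the groups did not overlap. The ratio of means was 1022, with pairs of libraries giving 794 to 1389. The untreated eGFP values rest on very few fragments. Given the fitted depths and the rounding of the table, the smallest whole numbers of fragments that could give both values were 4 and 7, which would imply a reference sequence of 712 to 723 nt. The file states no length for this row, and the next pair that the rounding allows, 7 and 12, would need 1055 to 1069 nt. With 4 and 7 fragments the 95% Poisson intervals were 0.0708 to 0.666 FPKM and 0.169 to 0.865 FPKM, and the ratio of the summed fragments had an exact interval of 567 to 2034, for counting error only. The same interval for Rax was 182 to 276.

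**Figure D1:**
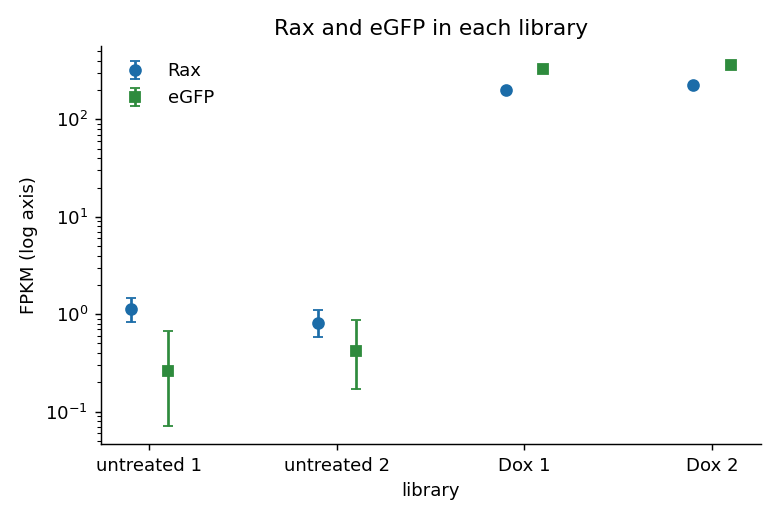
FPKM of Rax (circles) and eGFP (squares) in each of the 4 libraries on a log axis, with 95% Poisson intervals for counting error as bars. Rax lies above eGFP in both untreated libraries (1.12 against 0.26 and 0.82 against 0.42 FPKM) and below it in both Dox libraries (201.14 against 333.52 and 227.98 against 361.13 FPKM).

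The order of the 2 rows in FPKM differed between the groups. FPKM divides by length and the length used for eGFP is not stated, so the order within a library rests on that length. A fixed length does not alter how the ratio differs between the groups. eGFP was 0.232 times the Rax level in untreated replicate 1 and 0.512 times in untreated replicate 2. It was 1.66 times the Rax level in Dox replicate 1 and 1.58 times in Dox replicate 2. The Dox libraries were close to each other (1.62 ± 0.0524, SD, n = 2), while the untreated ones were apart (0.372 ± 0.198, SD, n = 2). Exact intervals from the fragment numbers were 0.0610 to 0.631 and 0.194 to 1.15 without Dox, and 1.60 to 1.72 and 1.53 to 1.64 with it. The interval of untreated replicate 2 includes 1, so in that library the order of the 2 rows was not beyond counting error. Neither untreated interval reached the Dox values. The fold of the reporter was 4.62 times that of the gene. The untreated intervals assume 4 and 7 fragments of eGFP, the smallest pair that the rounding allows, and would be narrower with a larger pair. Adding 1 FPKM to every value lowered the log2 difference in the ratio between groups from 2.23 to 1.25.

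**Figure D2:**
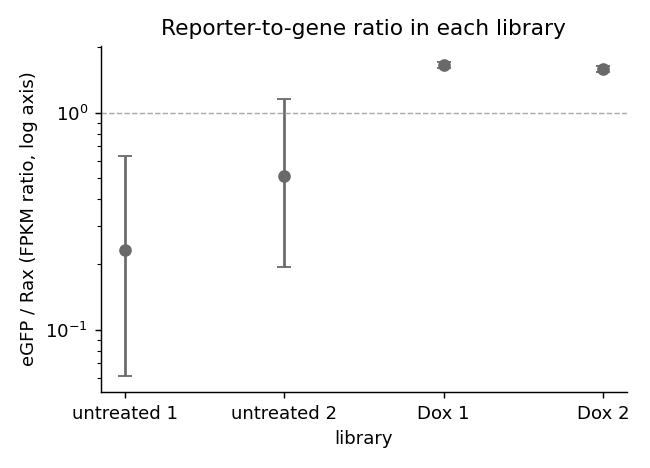
eGFP divided by Rax, both in FPKM, in each library on a log axis, with exact 95% intervals for counting error and a dashed line at 1. The untreated ratios of 0.232 and 0.512 lie below the line and the Dox ratios of 1.66 and 1.58 above it.

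The other fluorescent and recombinase rows of the table were at or near 0. In none of the 4 libraries did Cre, mCherry or tdTomato have a value above 0. eYFP, whose sequence is close to that of eGFP, was listed at 0 in both untreated libraries and in Dox replicate 2, and at 0.1 FPKM in Dox replicate 1. The 2 untreated eGFP values were above every value of these rows. These rows do not show where the untreated eGFP fragments came from, which was not tested.

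Set against the whole transcriptome, the pair led the increases. Tests covered the 13931 rows that averaged 1 FPKM or more. Among them eGFP had the largest and Rax the second largest difference in either direction on the log2(FPKM + 1) scale, 8.02 and 6.78. eGFP stood 1.25 above Rax, and Rax 0.35 above the next gene, Six6, a homeobox gene of the eye field and optic vesicle (log2 difference 6.42). Tbx2 (5.89) and Hmx1 (5.43), transcription factor genes with roles in eye patterning, followed.

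The rank depended on how change is measured. By plain ratio of means, 21 tested rows were listed at 0 in both untreated libraries and have no ratio, and among the others eGFP was in place 3 and Rax in place 7. By gain in FPKM, eGFP was in place 5 of all rows with 347 FPKM and Rax in place 15 with 213.6 FPKM. The eye-field gene Lhx2, which gained 275 FPKM, lay between them. With a pseudocount of 0.1 FPKM in place of 1, Rax was in place 6 of the log2 order while eGFP stayed in place 1. With a pseudocount of 5 FPKM Rax was again in place 2.

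**Figure D3:**
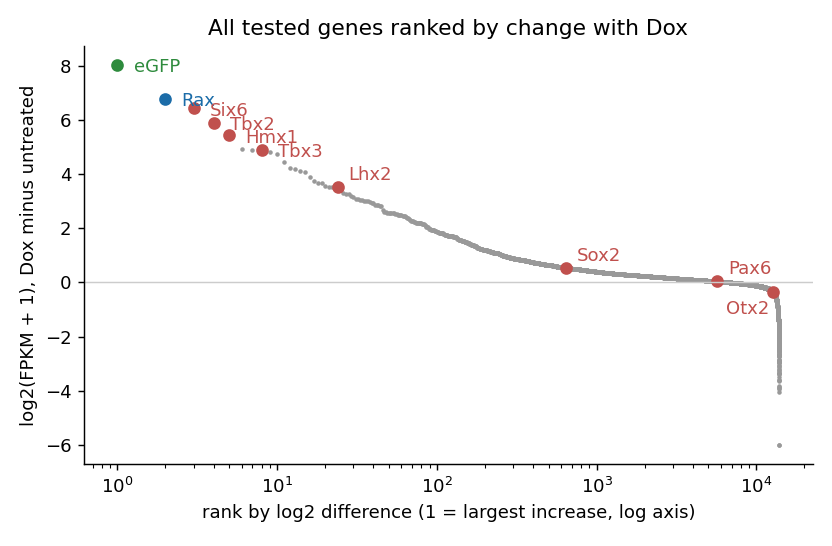
Log2 difference of FPKM + 1 between Dox and untreated means for all 13931 tested rows (grey), against the rank by that difference on a log axis, with selected genes in colour. eGFP (8.02) and Rax (6.78) occupy the first and second places, above Six6 (6.42) and Tbx2 (5.89), while Pax6 (0.04) lies near 0.

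The gene whose profile over the 4 libraries was most like that of Rax was Six6. Likeness was taken as the Euclidean distance between profiles of log2(FPKM + 1), each centred on its own mean, so that size and shape both count, and 4 libraries in 2 groups give it little resolution. Six6 was at a distance of 0.387, and Tbx2 was next at 0.922. eGFP was in place 3 at 1.28, farther than both because its rise was larger. Hmx1 was at 1.35 and Mab21l1, a gene needed for lens and retina growth, at 1.88. Tbx3, a T-box gene of the eye field, was at 1.91. Shisa2, which encodes an antagonist of Wnt and FGF receptor maturation, was at 1.95, and Fzd5, a Wnt receptor gene of the optic vesicle, at 2.05. These complete the 8 nearest named genes apart from 1 that is not described.

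Values of these neighbours show how they differ from Rax in level. Six6 had 0.01 FPKM in each untreated library, and 79.22 and 92.44 FPKM with Dox. Tbx2 was at 0.12 and 0.20 FPKM without Dox and at 59.09 and 78.13 FPKM with it. Shisa2 came closest to Rax in final level, at 191.62 and 227.17 FPKM, but it started at 7.06 and 5.79 FPKM. Fzd5 started where Rax did, at 1.10 and 0.92 FPKM, and reached 44.55 and 61.52 FPKM. The 8 genes kept their place among the 8 nearest with TPM scaling, with quantile normalization and without any 1 library. With a pseudocount of 0.1 only 4 of them did, Hmx1 became the nearest and eGFP was in place 14. With a pseudocount of 5, 6 of them did and eGFP was in place 1.

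Within the Dox group, Rax and eGFP differed little between the replicates. Rax was 1.13 times and eGFP 1.08 times higher in Dox replicate 2 than in replicate 1. Of the 619 genes called higher with Dox, 444 (71.7%) were higher in replicate 2, against 55.5% of all tested genes. The FPKM values of Dox replicate 2 sum to less (793308 against 866239), and after scaling to a common sum (TPM) Rax was at 232 and 287, and eGFP at 385 and 455, in Dox replicates 1 and 2. The part of library composition in this difference was not tested.

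Rax joined a set of eye-field and optic vesicle factors that differed widely in their starting level. Of the 20 transcription factor genes on that list, 17 were tested. Of these, 14 were higher, 2 lower and 1 did not pass (limma, adjusted p below 0.05), against the background of 9.31%, and their median log2 difference was 3.25 beside -0.0042 over all tested genes. Genes expressed with Dox alone enter the test through the Dox libraries, and the list was chosen with earlier results of these data known, so the count is a description. The lower genes were Otx2 and Nr2e1. Nr2e1, a gene of neural stem cells, went from 30.64 and 27.17 to 18.65 and 19.83 FPKM (adjusted p = 0.0169 in limma), and leaving out 1 library gave 0.0494 to 0.108.

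In level, Rax passed nearly every one of these factors. Without Dox it was in place 9 of the 21 genes made up of Rax and this list, below Otx2 (172.8 FPKM), Pax6 (123.3 FPKM), Sox2 (103.5 FPKM), Nr2e1, Lhx2, Meis2, Six3 and Meis1. With Dox it was in place 2, between Lhx2 (300.5 ± 33.0 FPKM) and Sox2 (151.4 ± 17.2 FPKM, SD, n = 2 each), and its libraries overlapped with neither. Otx2 (134.2 FPKM) and Pax6 (126.7 FPKM) came next. The lowest Sox2 library (139.25 FPKM) lay close to the highest Otx2 library (137.05 FPKM), and the lowest Otx2 library (131.35 FPKM) close to the highest Pax6 library (130.69 FPKM). Six3 (95.9 FPKM) and Six6 (85.8 FPKM) followed, and the libraries of these last 2 genes overlapped.

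Otx2 and Sox2, whose products are reported to act together on a Rax enhancer, were abundant in both groups and moved little. Otx2 was at 173.12 and 172.52 FPKM without Dox and at 137.05 and 131.35 FPKM with it, a log2 difference of -0.36 (limma, adjusted p = 0.0254). Sox2 was at 109.56 and 97.34 FPKM without Dox and at 139.25 and 163.64 FPKM with it, a log2 difference of 0.54 (adjusted p = 0.0347 in limma). Both calls were lost when any 1 library was left out, with adjusted p of 0.0787 to 0.196 for Otx2 and 0.0582 to 0.203 for Sox2 in limma, and with the replicate block (0.105 and 0.0505). The ratio of means was 0.777 for Otx2 and 1.46 for Sox2, and 221 for Rax. The part of Otx2 and Sox2 in the Rax difference was not tested.

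Genes reported to depend on Rax split into those that rose and those that did not. Of 7 such genes 6 were tested, and 4 of them rose (limma, adjusted p of at most 0.00123), beside 4.44% of all tested genes. Six3 went from 7.70 and 7.05 to 83.02 and 108.75 FPKM and Lhx2 from 26.72 and 24.30 to 277.17 and 323.88 FPKM. Hes1, a repressor that keeps progenitors dividing, went from 35.99 and 31.08 to 81.23 and 92.10 FPKM. Crx, the homeobox gene of photoreceptor precursors, went from 0.57 and 0.50 to 5.22 and 6.09 FPKM. Crx passed the filter only through the Dox libraries, so it could enter the count only as a gene that rose. Pax6 was at 127.76 and 118.86 FPKM without Dox and at 122.80 and 130.69 FPKM with it, and its groups overlapped (log2 difference 0.04, adjusted p = 0.796 in limma). Notch1 was at 11.54 and 9 FPKM without Dox and at 9 and 12.02 FPKM with it (adjusted p = 0.942 in limma). Shh, which Rax is reported to support in the hypothalamus, did not exceed 0.06 FPKM in any library.

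Among its relatives of the paired homeobox class, Rax moved from the middle of the order of levels to the top. Of 35 relatives listed, 34 were in the table, 16 stayed below 1 FPKM in every library and 15 were tested. Of these 4 were higher and 7 lower with Dox and 4 did not pass (limma, adjusted p below 0.05), beside 4.44% higher and 4.87% lower of all tested genes, and the median log2 difference was -0.36 beside -0.0042 over all tested genes. The summed level of the relatives was 399.6 to 415.1 FPKM without Dox and 381.4 to 398.7 FPKM with it, and Otx2 and Pax6 made up most of it in both groups. Rax was in place 16 of the 35 genes by level without Dox and in place 1 with it.

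The relatives that moved did so in both directions. Dmbx1, a gene of the developing diencephalon and midbrain, fell from 7.97 and 7.09 to 0.38 and 0.48 FPKM (log2 difference -2.58, adjusted p = 2.91e-04 in limma). Pax3, a gene of the dorsal neural tube and neural crest, fell from 6.97 and 6.99 to 0.71 and 0.47 FPKM, and Uncx from 3.14 and 2.68 to 0.24 and 0.20 FPKM. Dmbx1, Pax3 and Uncx passed the filter only through the untreated libraries. Otx1, the forebrain and midbrain partner of Otx2, fell from 31.21 and 29.98 to 14.10 and 16.42 FPKM. Gsc2 was lower too (log2 difference -0.79, adjusted p = 0.0147 in limma), a call lost when any 1 library was left out (adjusted p 0.0726 to 0.0778). On the other side Prrx2 rose from 9.82 and 9.80 to 52.32 and 57.65 FPKM. Hopx rose from 1.81 and 1.12 to 5.00 and 5.43 FPKM (adjusted p = 0.00721 in limma), a call lost without Dox replicate 1 (0.0618) or Dox replicate 2 (0.0808). Pax7, Prrx1 and Alx1 did not pass, with log2 differences of -0.13, -0.55 and 0.42. Phox2a, under the filter, was at 1.41 and 0.80 FPKM without Dox and at 0.18 and 0.33 FPKM with it. Hesx1, also untested, was at 0.37 and 0.81 FPKM without Dox and at 1.48 and 1.31 FPKM with it.

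**Figure D4:**
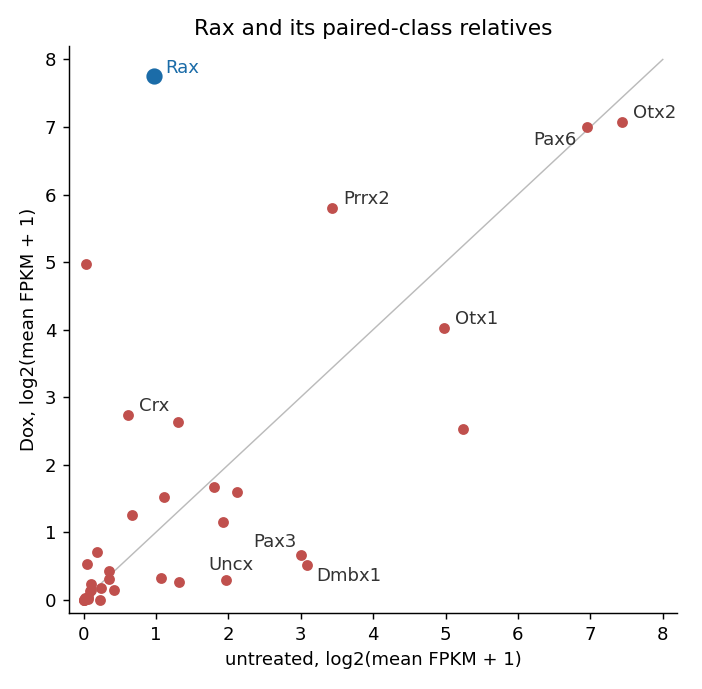
Mean level of Rax (blue) and 34 paired-class relatives (red) without Dox (x axis) and with Dox (y axis), both as log2(mean FPKM + 1), with a line of equal level. Rax lies farthest above the line, Otx2 and Pax6 lie near it, and Dmbx1, Pax3 and Uncx lie below it.

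At its own locus the rise of Rax came with signal on the opposite strand's gene. In GRCm38, the assembly also called mm10, the principal transcript of Rax (ENSMUSG00000024518) lies on the minus strand at chr18:65934636-65939089 and has 3 exons in GENCODE M21. The antisense gene Raxos1 (ENSMUSG00000097907) spans chr18:65937538-65940447 on the plus strand, and its exons cover 48.9% of the principal Rax transcript. Raxos1 was listed at 0 in both untreated libraries and at 2.25 and 4.97 FPKM in Dox replicates 1 and 2, a description only, since the gene was picked after its values were seen. These values were 1.12% and 2.18% of the Rax value in the same library. Whether the counting used strand is not given in the sources used here, and without strand the reads of Rax and Raxos1 cannot be told apart.

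Of the 5 protein-coding neighbours, only Sec11c and Lman1 were tested. Of these Lman1 was called higher, beside 4.44% of all tested genes. In the RefSeq order, Grp was listed at 0 in all 4 libraries, and Ccbe1 did not exceed 0.06 FPKM. Cplx4, the next gene on the side of the Rax start, 16.6 kb away, was at 0 and 0.02 FPKM without Dox and at 0.18 and 0.14 FPKM with it, too low to be tested. Sec11c, a signal peptidase subunit gene, was at 9.16 and 9.43 FPKM without Dox and at 12.43 and 9.79 FPKM with it, and did not pass (adjusted p = 0.354 in limma). Lman1, a cargo receptor gene for transport from the endoplasmic reticulum to the Golgi that lies beyond Cplx4 at 41.65 kb from Rax, rose from 48.87 and 52.83 to 111.65 and 120.04 FPKM. Its log2 difference was 1.17 (adjusted p = 7.27e-04 in limma), its groups did not overlap, and its adjusted p did not exceed 0.0203 in any alternative fit. The other 5 entries within 5 places of Rax were pseudogenes and non-coding RNAs, and the 4 of them in the table did not exceed 0.07 FPKM.

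**Figure D5:**
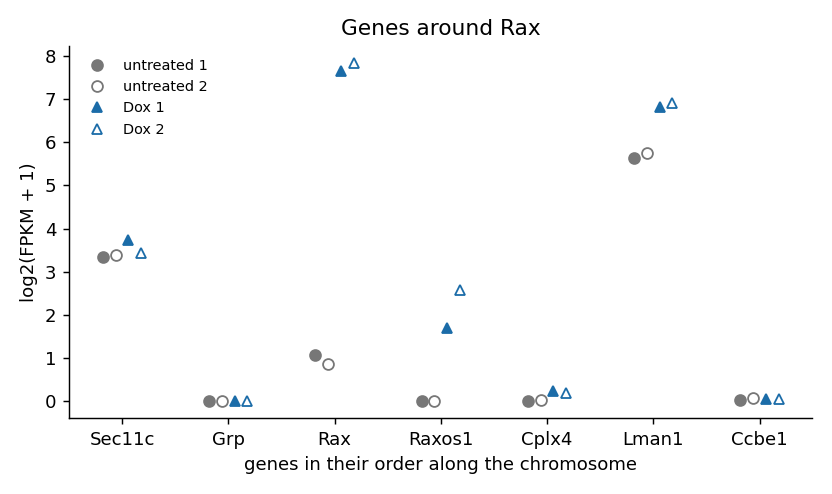
Level of Rax, its antisense gene Raxos1 and 5 protein-coding neighbours in each library, as log2(FPKM + 1), in chromosomal order, with circles for untreated and triangles for Dox libraries. Rax and Raxos1 separate fully by group, Lman1 is higher in both Dox libraries, and Grp, Cplx4 and Ccbe1 lie near 0 in all 4.

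Marker lists show which cell type genes moved alongside Rax. Of 10 retinal progenitor markers all were tested, 8 were higher and 0 lower (limma), beside 4.44% and 4.87% of all tested genes, and members such as Six6 passed the filter only through the Dox libraries. Their summed level was 302 to 335 FPKM without Dox and 862 to 998 FPKM with it. Fgf15, a growth factor gene of early retinal progenitors, went from 1.40 and 1.18 to 19.13 and 20.06 FPKM. Without Dox, Pax6, Sox2 and Lhx2 were present while Six6 was near 0 and Rax near 1 FPKM. The retinal progenitor and eye-field counts include Lhx2, Six3, Six6, Pax6 and Sox2, which several lists share.

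Rax also marks the hypothalamus, and the markers of that tissue did not rise as a group. Nkx2-1, its defining marker, was listed at 0 in 3 libraries and at 0.03 FPKM in Dox replicate 2, and Gsx1 at 0 in all 4. Of the 12 hypothalamus markers, 9 stayed below 1 FPKM in every library, and the summed level was 7.53 to 8.10 FPKM without Dox and 7.77 to 8.50 FPKM with it. Hmx3, a homeobox gene also linked to the inner ear, rose from 0.20 and 0.14 to 3.84 and 5.00 FPKM. Foxb1, a gene of the mammillary region, fell from 3.57 and 3.14 to 0.06 and 0.13 FPKM (adjusted p below 0.001 in limma for both genes). Hmx3 passed the filter only through the Dox libraries and Foxb1 only through the untreated ones. Of all tested genes, 4.44% were called higher and 4.87% lower. Pomc did not pass (adjusted p = 0.193 in limma).

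Markers of other tissues differed in how many passed the test, beside 4.44% higher and 4.87% lower of all tested genes. Of 11 pigment epithelium markers 4 were tested, and 3 of them rose. Pmel went from 1.20 in both untreated libraries to 39.27 and 39.93 FPKM. Dct went from 0.09 and 0.14 to 8.43 and 8.58 FPKM, and Mitf from 0.93 and 0.97 to 12.78 and 12.71 FPKM. Both Dct and Mitf passed the filter only through the Dox libraries. The list's sum rose from at most 7.34 to at least 67.6 FPKM, while Tyr did not exceed 0.11 FPKM and Rpe65 0.08 FPKM. Of 10 telencephalon markers 5 were tested: 3 were lower, Emx2 (from 78.18 and 75.76 to 11.01 and 6.26 FPKM), Dmrta2 and Emx1 (limma adjusted p for Emx1 of 0.0493 to 0.146 when 1 library was left out), 1 was higher and 1 did not pass. The summed level of this list was 165.8 to 168.2 FPKM without Dox and 45.9 to 53.7 FPKM with it. Of 12 markers of caudal diencephalon, midbrain and hindbrain 4 were tested and 3 were lower, Wnt1, Barhl2 and Irx3 (beside 4.87% of all tested genes), with sums of 28.1 to 32.2 and 12.6 to 13.6 FPKM. Wnt1 and Barhl2 passed the filter only through the untreated libraries. Of 10 neuron markers 6 were tested, of which 5 were lower and 1, Prox1, was higher. The fits without 1 library called 4 of them, except the fit without untreated replicate 1, which called 2. Elavl3 and Tubb3 were among the lower genes that missed the threshold in some of these fits, and some neuron markers fell under the filter there. The Prox1 call was lost in each (adjusted p 0.0545 to 0.0865 in limma). The neuron sums were 140 to 144.8 and 84.5 to 89.0 FPKM. Of 10 lens and surface ectoderm markers 6 were tested and 0 passed in limma, 1 having an unadjusted p below 0.05, with sums of 61.3 to 66.3 and 61.5 to 70.1 FPKM. Of 10 pluripotency markers 9 were tested and 1, Klf4, was lower, a call lost when any 1 library was left out (adjusted p 0.0927 to 0.145 in limma), with sums of 76.6 to 81.2 and 58.5 to 85.9 FPKM. Klf4 passed the filter only through the untreated libraries. The part of cell type proportions in the Rax and eGFP values was not tested.

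Most housekeeping genes moved little in level. Their 1 call among 11 tested genes stands beside 9.31% called of all tested genes, so the count does not set them apart. Of 12 such genes 11 were tested, their log2 differences ran from -0.086 to 0.51 with a median of 0.046, and only B2m, at 0.51, was higher (adjusted p = 0.00952 in limma, lost when any 1 library was left out). Tbp was at 28.58 and 29.72 FPKM without Dox and at 27.93 and 27.85 FPKM with it. Hprt stood at 0.52 to 0.74 FPKM in all 4 libraries and was not tested.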

How the data were processed

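Poly(A) RNA of 4 libraries was sequenced as paired ends. The authors deposited FPKM values, 1 column per library, rounded to 2 decimals. Per the submitters' processing notes, STAR, Cuffdiff and genome build mm10 were used, without versions or options. Annotation release and strand setting are not given in the sources used here. FPKM is not a count, so log2(FPKM + 1) was tested with limma 3.58.1 (R 4.3.3, lmFit, eBayes with an intensity trend) on the 13931 rows with a mean of 1 FPKM or more (which lets in genes seen in 1 group only), two-sided, with Benjamini-Hochberg adjustment over all of them and a threshold of 0.05. On simulated data for this comparison with 13931 genes, of which 200 were changed, 100% of these 2-fold and 4-fold changes were recovered. Of the calls, 3.85% were unchanged genes. Recovery among genes of low level was not tested. Depth was fitted in Python 3.11.15 from low values of single-transcript genes of 450 to 1200 nt, which step by 1 fragment: 77.2% to 79.6% came out whole within 0.1 fragment, against 18.1% to 19.9% with gene lengths exchanged. A length correction of 240 nt was fitted in every library. Intervals are exact, at 95%, and cover counting error only.

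Columns were matched to samples by library name and grouped by the treatment label. Rax and eGFP, the gene lists and the rules were chosen with earlier results of these data known. Named genes are the pair, the other reporter rows, Mettl3, the 8 genes nearest to Rax, those next in rank, RefSeq (GRCm38.p6) neighbours within 5 places, and listed genes that were called, abundant or in the paired class. Raxos1 was added after its values were seen. Some genes picked by these rules are not reported here but stay in tests and counts. Alternatives were other pseudocounts (0.1, 5), filters, scalings, variance models, the replicate number as a block, and each library left out.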

Additional observations from a re-analysis of the deposited data

Results flagged for a closer look

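The eYFP row of the deposited table, which enters no comparison, held 0.1 FPKM in Dox replicate 1, above the 0 listed in both untreated libraries. It was listed at 0 in Dox replicate 2, so the value rests on 1 library. It equals 0.03% of the eGFP value of that library (333.52 FPKM). Where these fragments came from was not tested.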

How the results depend on the processing

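eGFP kept place 1 by log2 difference under every alternative run, and Rax place 2 under all except a pseudocount of 0.1, where it was in place 6. The log2 difference of Rax was 7.66 with a pseudocount of 0.1 and 5.20 with 5, and that of eGFP 9.65 and 6.04. With TPM scaling that of eGFP was 8.23. Without 1 library it ran from 6.67 to 6.89 for Rax and from 7.94 to 8.11 for eGFP, both still in their places. The log2 difference of the eGFP to Rax ratio was 1.25 with a pseudocount of 1, and 1.66 without untreated replicate 1 to 2.80 without untreated replicate 2. Of the 8 genes nearest to Rax, 4 stayed with a pseudocount of 0.1.

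Across all genes, 619 were called higher and 678 lower. Without a filter these were 336 and 409, with a minimum mean of 5 FPKM 408 and 413, and with any 1 library left out 265 to 332 and 341 to 370, fits in which the lone library is assumed to vary like the others. With the replicate block the counts were 532 and 602. Nothing in the data pairs same-numbered libraries (the correlation of replicate differences between the groups, across genes, was -0.043), and this pairing as a block ended the calls of Otx2 (adjusted p = 0.105 in limma) and Sox2 (0.0505) and of none of the other genes among the 51 called ones on the lists or near Rax that were refitted.

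Counts of called genes on the lists moved as follows. With a minimum mean of 5 FPKM they were 5 for the paired class, 0 for hypothalamus (none left to test), 1 for caudal diencephalon to hindbrain, 2 for neurons and 0 for pluripotency. Without a filter they were 4 for hypothalamus, 0 for pluripotency and 0 for the pair of Otx2 and Sox2, which was also at 0 without the trend and with the block, and at 1 with quantile normalization. Robust estimation gave 2 for pluripotency. With any 1 library left out, neurons had 2 (without untreated replicate 1) to 4, and pluripotency, housekeeping and the pair of Otx2 and Sox2 had 0 in all 4 fits. Of 51 called genes on the lists or near Rax, 12 missed the threshold in some fit that tested them and 0 changed sign. A fit whose filter left a gene out is not counted here. The cause of these shifts was not tested. Depth limits the untreated eGFP value, which rests on few fragments (4 and 7 as the smallest pair).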
